A study of Mus musculus with 16 samples.

Results

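Voltage-gated calcium channels are built around a pore-forming alpha1 subunit, and 8 mouse genes for this subunit were followed in the hippocampus: Cacna1a, Cacna1b, Cacna1c, Cacna1d, Cacna1e, Cacna1g, Cacna1h and Cacna1i. Their members were taken as every transcript row that carried one of these 8 gene names, which gave 50 of the 80137 transcripts and 8 of the 18287 gene names in the expression table. Cacna1f, the retinal L-type gene, had 0 rows and Cacna1s, the skeletal muscle gene, had 2 rows. RNA was sequenced from male wild-type C57BL/6 mice of 3 months, with 4 mice for each of the 4 groups and 1 library made from the left and right hippocampus of each mouse. Homecage mice (HC) stayed in their cages without handling. Control mice (Ctrl) met the shuttle box without shocks on the first day and took the test of 30 escapable shocks of 0.4 mA on the next. The remaining mice received 180 inescapable foot shocks of 0.4 mA on the first day and the same 30 escape trials a day later, and the number of failed trials and the escape latency then sorted them into helpless (LH) and non-helpless, or resilient, (NLH) mice. LH and NLH were therefore formed by behaviour after equal inescapable shocks, and every group except HC had received shocks in the test before the tissue was taken. In the test an escape ended the shock and a failed trial ran it in full. LH mice, with more failures and longer latencies, were thus shocked for longer, and LH vs. NLH cannot be told apart from this difference. The 4 comparisons were Ctrl vs. HC, NLH vs. Ctrl, LH vs. Ctrl and LH vs. NLH, and they share mice, so they are not independent. P-values of limma set a difference against the spread between mice within groups, pooled over the 4 groups. Each comparison thus also draws on the spread within LH.

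The alpha1 subunit holds the pore, the voltage sensor and most drug sites of a calcium channel, while beta and alpha2delta subunits carry it to the membrane and tune its gating. Channels of the L type (Cacna1c and Cacna1d) sit mainly on cell bodies and dendrites of hippocampal neurons and couple calcium entry to gene expression, and those of the P/Q type (Cacna1a) and the N type (Cacna1b) trigger transmitter release at nerve terminals. The R-type channel of Cacna1e acts in dendrites, spines and terminals, and the T-type channels of Cacna1g, Cacna1h and Cacna1i open near the resting potential and shape burst firing.

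Values are in FPKM, a fragment count scaled by transcript length and by library size, and a gene is given as the sum over its rows. Differences are on log2(FPKM + 0.1), first group minus second, which understates the change of low genes, and a difference counted as called where the p-value of limma, adjusted over all genes or transcripts of the table, was under 0.05. None of the 8 gene sums was called in any of the 4 comparisons, and limma called 0%, 0.00547%, 0% and 0.0109% of all gene sums in Ctrl vs. HC, NLH vs. Ctrl, LH vs. Ctrl and LH vs. NLH. At an unadjusted p under 0.05 the count of members was 1, 1, 2 and 0 of 8, beside 2.70%, 5.59%, 11.5% and 7.54% of all gene sums. The members involved were Cacna1i (Ctrl vs. HC), Cacna1h (NLH vs. Ctrl) and Cacna1h with Cacna1i (LH vs. Ctrl). Over the 8 genes the median difference was 0.05, -0.22, -0.21 and -0.07 in the 4 comparisons, beside 0.02, 0.06, 0.00 and -0.06 over all gene sums. The study's own kind of test, a two-sample test on FPKM, also called none of the 8 gene sums after adjustment. The smallest adjusted p of a gene sum was 0.139, for Cacna1h in LH vs. Ctrl.

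**Figure D1:**
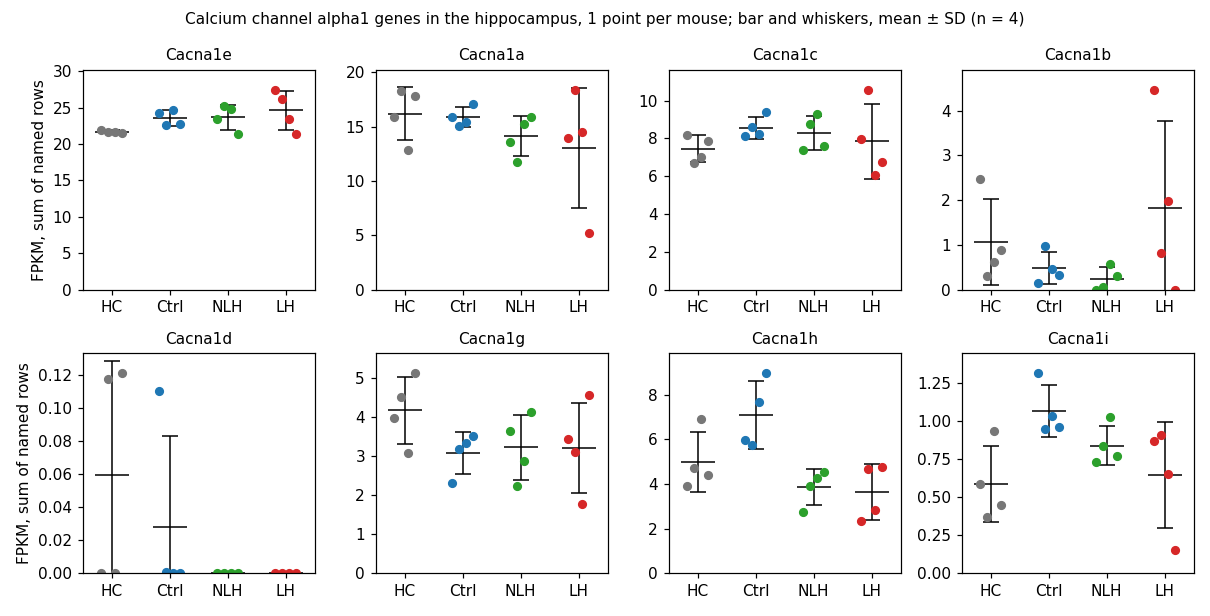
Summed FPKM (y axis, linear, starting at 0) of each of the 8 genes in HC, Ctrl, NLH and LH (x axis), with 1 point per mouse and bars and whiskers for the mean ± SD of 4 mice; whiskers that would pass below 0 end at the axis. Cacna1h points of Ctrl lie above all points of NLH and LH, and 1 LH mouse lies far below the others for Cacna1a.

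The genes differed far more from each other than between groups. Cacna1e had the highest sum, with a mean of 23.4 over the 16 mice, and each mouse had more of it than of any other member. Cacna1a followed with 14.8, Cacna1c with 8.03, Cacna1h with 4.90 and Cacna1g with 3.43. Cacna1b (0.898) and Cacna1i (0.785) could not be ranked, since Cacna1b was the higher of the pair in only 5 of 16 mice, and Cacna1d was lowest with 0.0219. Cacna1h was above Cacna1g in 12 of 16 mice, so these neighbours overlapped, whereas Cacna1c was above Cacna1h in all 16.

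What the sums are made of differed as much as their size. By the GENCODE annotation, 24 of the 50 rows are complete coding transcripts, 6 are partial coding fragments and 20 have no coding frame, of which 10 are retained-intron transcripts and 10 other processed transcripts. Complete coding transcripts held 91.4% of the Cacna1e sum and 86.5% of the Cacna1c sum. They held 5.05% of the Cacna1a sum and 0.639% of the Cacna1h sum, where short transcripts without a frame took nearly all of the rest. By mass, that is FPKM times transcript length, the coding share of Cacna1a was 31.4% and that of Cacna1h 6.03%. A further 56 transcripts that the authors' assembly placed at the same 8 loci carry no gene name, and the named rows made up 54.1% of the FPKM at the locus of Cacna1a, 7.08% for Cacna1b, 42.7% for Cacna1c, 0.484% for Cacna1d, 59.8% for Cacna1e, 72.2% for Cacna1g, 41.8% for Cacna1h and 15.5% for Cacna1i. With all rows of a locus counted, the order was Cacna1e (39.1), Cacna1a (27.4), Cacna1c (18.8), Cacna1b (12.7), Cacna1h (11.7), Cacna1i (5.07), Cacna1g (4.76) and Cacna1d (4.52). Cacna1b and Cacna1d, which were low in the named rows, were present through transcripts that have no gene name in the table. Neighbours in this order overlapped between mice except Cacna1e with Cacna1a and Cacna1h with Cacna1i.

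**Figure D2:**
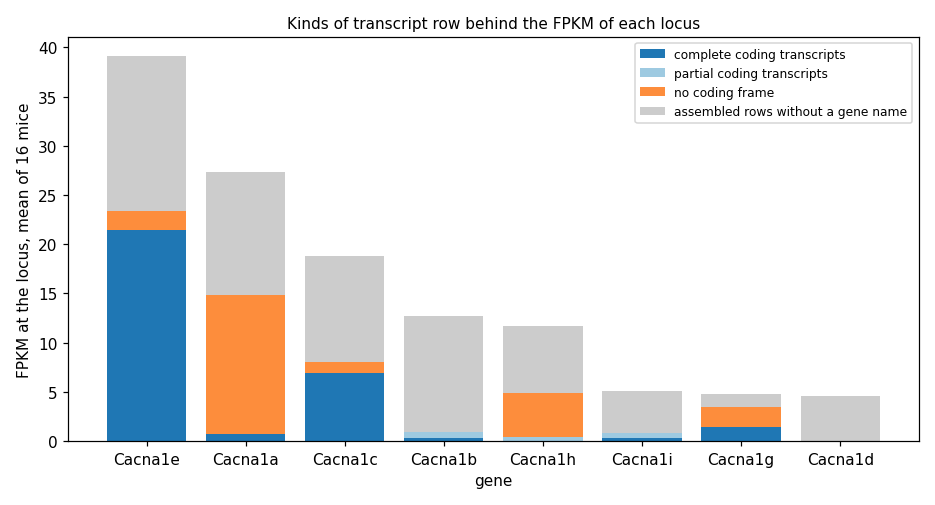
Mean FPKM of 16 mice at each of the 8 loci (y axis, linear from 0; x axis, gene), stacked by kind of row. Complete coding transcripts make up most of the named part for Cacna1e and Cacna1c, transcripts without a coding frame for Cacna1a and Cacna1h, and assembled rows without a gene name most of the bar for Cacna1b, Cacna1c, Cacna1d, Cacna1h and Cacna1i.

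The libraries differed in depth and in how many transcripts they held at 0. From the step size of low FPKM values the libraries were estimated to hold 20160000 to 38060000 mapped fragments. LH replicates 3 and 4 had 10846 and 15504 transcripts at exactly 0, against 4872 to 7352 in the other 14 libraries, and pairs of LH mice had r of 0.683 to 0.858 over transcripts, against 0.843 to 0.891 for pairs within the other groups. The summed markers of hippocampal neurons (9 of 10 listed genes) were at 397 to 638 FPKM in the libraries. This sum was led by Camk2a (185 to 304) and Slc17a7 (100 to 178). Wfs1 was at 0.00225 in LH replicate 4 and 0.194 in LH replicate 3, and reached 4.71 in NLH replicate 3. The lowest value of any other of these genes was 5.83, for Prox1. The summed choroid plexus markers (7 of 7 genes) ranged from 13.9 to 317 and the thalamus markers (9 of 9) from 17.5 to 46.2, and both spanned their full range within LH. In whole tissue, fewer cells of a type and less RNA per cell cannot be told apart.

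Cacna1c encodes the main L-type pore of the forebrain. Its gene lies on chromosome 6, at 118587240 to 119196418 on the minus strand (GRCm38, the mm10 build), and 9 rows carried its name. The sums were 8.19, 6.69, 7.03 and 7.89 for HC mice, 8.11, 8.59, 8.21 and 9.40 for Ctrl mice, 7.41, 8.78, 9.29 and 7.61 for NLH mice and 7.95, 10.6, 6.07 and 6.76 for LH mice. The groups overlapped in every comparison, and the largest difference of the sums was 0.20 (SE 0.15) in Ctrl vs. HC, with an adjusted p of 1 in limma. For LH vs. Ctrl the difference was -0.16 (95% interval -0.47 to 0.15). With all rows of the locus it was -0.26 (SE 0.11, unadjusted p = 0.0291, adjusted p = 0.306, limma), from 17.0 ± 3.06 in LH and 20.1 ± 0.870 in Ctrl (SD, n = 4), and LH replicates 1 and 3 were the lowest of the 16 mice.

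The 2 most abundant Cacna1c transcripts were Cacna1c-207 (ENSMUST00000186889.6, mean 4.88) and Cacna1c-203 (ENSMUST00000112790.8, mean 1.85), both complete coding transcripts. They use different members of a pair of 84-base exons, and these exons are shown because they tell the 2 transcripts apart. Of the 6 complete coding rows, 1 minor row with a mean of 0.0120 carries both exons and the others carry 1 of them. Both are coding, on the minus strand of GRCm38, at chr6:118638427-118638510 for Cacna1c-207 and chr6:118637730-118637813 for Cacna1c-203. Read 5′ to 3′ from the GENCODE transcripts, with capitals at the 35 bases where they differ (58.3% identical), they are:
Cacna1c-207: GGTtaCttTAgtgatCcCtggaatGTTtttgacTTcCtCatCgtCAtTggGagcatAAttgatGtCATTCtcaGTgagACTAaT
Cacna1c-203: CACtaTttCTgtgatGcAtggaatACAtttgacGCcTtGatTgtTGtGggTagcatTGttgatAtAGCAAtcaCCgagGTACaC

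Of the FPKM of the complete coding Cacna1c transcripts with either exon, those with the first-named exon took 70.5% ± 3.18 for HC mice, 72.5% ± 3.31 for Ctrl mice, 70.2% ± 2.21 for NLH mice and 68.9% ± 3.45 for LH mice (SD, n = 4). The share stayed between 64.4% and 77.1% in the 16 mice, and the groups overlapped in each comparison (exact permutation tests, two-sided, unadjusted p of 0.257 to 0.571). For another pair, of 104 bases, the upstream exon held 97.2% on average, and for a pair of 60 bases it held 3.06% (exact permutation tests, two-sided, unadjusted p of 0.457 to 0.886, with 12 such tests in all). FPKM of near-identical long transcripts are shared out by the quantifier, so these shares carry an estimation error that was not analysed here.

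The third Cacna1c transcript, Cacna1c-211 (ENSMUST00000187849.1), has no coding frame and 715 bases. It was at 1.64, 1.12, 0.852 and 1.76 in Ctrl and at 0.432, 1.73, 0.0993 and 0.485 in LH. HC mice were at 0.862 ± 0.234 and NLH mice at 0.830 ± 0.0907, so all 3 other groups had a mean below that of Ctrl. Of the LH mice 3 were below all Ctrl mice and LH replicate 2 was within their range. The difference of -1.26 (SE 0.48) had an adjusted p of 0.381 in limma. Without LH replicate 2, the mouse that overlapped with Ctrl, the adjusted p was 0.0492, and without each of the other LH mice it was 0.388, 0.517 and 0.345 (limma). The difference itself was -0.75 without LH replicate 3 and -0.50 without LH replicates 3 and 4. As leaving out LH replicate 2 itself separates the groups, nothing is read from its p.

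Cacna1d encodes the other neuronal L-type pore, which opens at lower voltage than the Cacna1c channel. The gene is on chromosome 14, at 30039939 to 30491455 on the minus strand. Its single named row, the coding transcript Cacna1d-201 (ENSMUST00000112249.7), reached 0.118 and 0.121 in 2 HC mice and 0.110 in 1 Ctrl mouse and was near 0 in the other 13 mice, so no difference was detectable in the named row. The 5 assembled rows of the locus summed to 4.20 ± 0.227 for HC mice, 4.27 ± 0.165 for Ctrl mice, 4.63 ± 0.168 for NLH mice and 4.89 ± 0.539 for LH mice. NLH mice were all above the Ctrl mice in this sum (4.43 to 4.79 against 4.10 to 4.42, exact permutation test, two-sided, p = 0.0286), but on the whole locus the groups overlapped (exact permutation test, two-sided, p = 0.0571), with a difference of 0.10 (SE 0.09) and an adjusted p of 0.961 in limma. The p of 0.0286 is the smallest that 4 mice against 4 allow.

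Cacna1a encodes the P/Q-type pore. The gene is on chromosome 8, at 84388440 to 84640246 on the plus strand, with 9 named rows. Its sums were 15.9, 18.3, 12.9 and 17.8 for HC mice, 15.9, 15.02, 15.5 and 17.1 for Ctrl mice, 13.6, 11.8, 15.3 and 15.9 for NLH mice and 14.0, 18.4, 14.5 and 5.23 for LH mice. LH replicate 4 was below every other mouse, and the groups overlapped in all 4 comparisons. The difference in LH vs. Ctrl was -0.42 (SE 0.27, 95% interval -0.99 to 0.15, adjusted p = 0.598, limma) and was -0.03 without LH replicate 4.

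The leading Cacna1a row was Cacna1a-210 (ENSMUST00000153691.1, 549 bases, no coding frame, mean 4.76), which took 32.1% of the gene's FPKM. It carries the second member of a pair of 97-base exons that encode alternative versions of a stretch in the intracellular tail, whereas both coding rows (Cacna1a-201 and Cacna1a-202) carry the first, and no other named row carries the second. The exons are at chr8:84614695-84614791 (Cacna1a-201) and chr8:84615574-84615670 (Cacna1a-210) on the plus strand of GRCm38. Capitals mark the 37 bases at which they differ (61.9% identical):
Cacna1a-201: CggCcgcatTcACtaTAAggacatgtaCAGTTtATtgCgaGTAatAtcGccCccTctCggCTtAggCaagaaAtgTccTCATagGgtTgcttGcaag
Cacna1a-210: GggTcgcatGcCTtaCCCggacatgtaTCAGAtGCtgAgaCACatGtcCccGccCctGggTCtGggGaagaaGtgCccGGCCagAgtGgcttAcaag

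Cacna1a-210 was at 3.72, 4.67, 3.398 and 4.77 for HC mice, 4.61, 5.30, 4.36 and 5.88 for Ctrl mice, 5.07, 3.63, 5.56 and 3.64 for NLH mice and 7.22, 9.77, 3.70 and 0.812 for LH mice. The LH mice thus held both the 2 highest values and the lowest value of the 16. A noncoding gene on the opposite strand, Gm16183, shares 310 of the 549 bases of this transcript, and as the sources used here do not state whether strand was used in counting, reads of the pair cannot be told apart. It also shares 229 bases with each of the coding transcripts Cacna1a-201 and Cacna1a-202, 278 with Cacna1a-207, 227 with Cacna1a-208 and 151 with Cacna1a-209, so the same limit holds for the values of these rows.

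Cacna1a-207 (ENSMUST00000141981.7, 1153 bases, retained intron) was second with a mean of 3.25. Its last exon reads through a splice donor into the next intron, at chr8:84612373-84612492 on the plus strand, as shown here with the exon in lower case and the intron in capitals:
Cacna1a-207: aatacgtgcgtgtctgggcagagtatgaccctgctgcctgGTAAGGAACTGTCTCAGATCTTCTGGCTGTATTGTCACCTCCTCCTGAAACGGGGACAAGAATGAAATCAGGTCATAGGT

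This row was at 3.94, 2.86, 4.22 and 4.37 in Ctrl, 2.46, 2.30, 3.82 and 3.395 in NLH and 2.10, 1.63, 3.23 and 2.23 in LH. LH and Ctrl overlapped through 1 mouse of each. The difference was -0.74 (SE 0.21) with an unadjusted p of 0.00296 and an adjusted p of 0.220 in limma. The long coding transcript Cacna1a-201 (ENSMUST00000121390.7) ran the other way, at 2.01, 1.79, 0.852 and 0.395 for HC mice, near 0, 0.186, 0.299 and 0.646 for Ctrl mice, 0.357, 0.303, 0.386 and near 0 for NLH mice and 0.437, 1.24, 1.22 and 0.780 for LH mice. Each LH mouse was above each NLH mouse for it, with a difference of 1.64 (SE 0.66, adjusted p = 0.517, limma). By limma its difference was 1.65 in LH vs. Ctrl (adjusted p = 0.401) and -1.95 in Ctrl vs. HC (adjusted p = 1). In the test of a transcript against the rest of its gene, Cacna1a-201 differed by 2.17 (SE 0.75) in LH vs. Ctrl, also short of the threshold (adjusted p = 0.294, limma). Among the other rows without a frame, Cacna1a-206 (ENSMUST00000135382.1) was at 1.52, 1.23, 2.25 and 1.74 in NLH and lower in each LH mouse, at 0.833, 1.17, 1.18 and near 0 (-1.49, SE 0.60, adjusted p = 0.517, limma). Without LH replicate 4, the mouse near 0, the difference was -0.61 (adjusted p = 0.430, limma). Cacna1a-208 (ENSMUST00000143215.7) was at 0.344 ± 0.501 in LH and 0.808 ± 0.372 in NLH, with overlap. Cacna1a-209 (ENSMUST00000144879.7) was at 1.43 ± 0.585 in NLH and 1.99 ± 0.178 in Ctrl, also with overlap, and Cacna1a-204 (ENSMUST00000129620.1) was at 0.118 ± 0.0809 in Ctrl and 0.418 ± 0.150 in HC, without overlap.

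**Figure D3:**
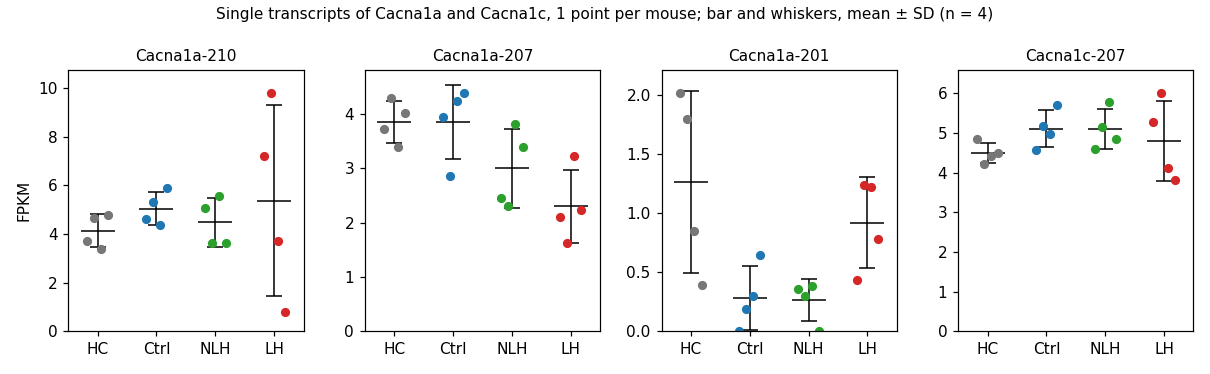
FPKM (y axes, linear from 0) of Cacna1a-210, Cacna1a-207, Cacna1a-201 and Cacna1c-207 by group (x axis), with 1 point per mouse and mean ± SD of 4 mice. The 4 LH mice span 0.812 to 9.77 for Cacna1a-210, while those for Cacna1c-207 lie between 3.82 and 6.00.

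Cacna1b encodes the N-type pore and lies on chromosome 2, at 24603887 to 24763152 on the minus strand. Its coding transcript Cacna1b-205 (ENSMUST00000114447.7) had a mean of 0.337, with all 4 groups overlapping. The named sum was widest in LH (4.47, 0.816, 1.98 and near 0), because the 308-base fragment Cacna1b-206 (ENSMUST00000124183.1) was at 4.12 and 1.98 in 2 LH mice, at 2.10 and 0.626 in 2 HC mice and at 0 in all Ctrl and NLH mice. The 4.12 corresponds to an estimated 12.6 fragments. The 12 assembled rows of the locus were steady, with 12.3 ± 1.02 for HC mice, 12.0 ± 0.257 for Ctrl mice, 11.9 ± 1.32 for NLH mice and 11.005 ± 0.768 for LH mice, and the whole locus differed by 0.03 (SE 0.11, 95% interval -0.21 to 0.27) in LH vs. Ctrl.

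Cacna1e encodes the R-type pore and was the most abundant member. The gene is on chromosome 1, at 154390731 to 154884501 on the minus strand, and 90.3% of its FPKM came from the coding transcript Cacna1e-203 (ENSMUST00000187541.6). The sums were 21.996, 21.6, 21.7 and 21.6 for HC mice, 24.2, 22.6, 24.7 and 22.7 for Ctrl mice, 23.4, 25.2, 24.8 and 21.4 for NLH mice and 27.5, 26.2, 23.4 and 21.4 for LH mice. HC mice were tightly grouped and all below the Ctrl mice, and the difference was 0.12 (SE 0.09, adjusted p = 1, limma). All Ctrl mice were above all HC mice for 3.32% of all gene sums, and among the 8 members for Cacna1e and Cacna1i. LH vs. NLH differed by 0.05 (95% interval -0.14 to 0.24).

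A minor coding transcript, Cacna1e-207 (ENSMUST00000211821.1), was at 0.349, 0.413, 0.503 and 0.364 in NLH and at 0.336, 0.105, 0.192 and near 0 in LH, without overlap. Its difference was -1.16 (SE 0.41) and the adjusted p was 0.451 in limma, and without LH replicate 4, the mouse near 0, the difference was -0.76. The retained-intron row Cacna1e-204 (ENSMUST00000188321.1, mean 1.68) had overlapping groups throughout. The 11 assembled rows of the locus summed to 17.0 ± 0.681 for HC mice, 17.0 ± 0.529 for Ctrl mice, 15.2 ± 0.787 for NLH mice and 13.7 ± 0.958 for LH mice, and all Ctrl mice were above all NLH and all LH mice (exact permutation tests, two-sided, p = 0.0286 for each). The named rows showed no such order, and for the whole locus LH vs. Ctrl was at -0.08 (SE 0.07, adjusted p = 0.619, limma). How often summed assembled rows separate without overlap over all loci was not computed.

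Cacna1g encodes a T-type pore and lies on chromosome 11, at 94408391 to 94474198 on the minus strand. Its 15 named rows include 10 complete coding transcripts, which together were at 1.31 ± 0.256 for HC mice, 1.38 ± 0.186 for Ctrl mice, 1.38 ± 0.0379 for NLH mice and 1.45 ± 0.376 for LH mice. The difference in LH vs. Ctrl was 0.05, although single coding transcripts ranged from near 0 to 0.934 between mice. Short rows without a frame carried the rest: Cacna1g-215 (ENSMUST00000146160.1) had a mean of 1.01 and Cacna1g-212 (ENSMUST00000133000.1) one of 0.667. The 434-base row Cacna1g-213 (ENSMUST00000133331.1) was at 0.532 and 0.806 in 2 HC mice and near 0 in the other 2, at 0.420, 0.558, 0.447 and 0.712 in Ctrl, at 0.349 in 1 NLH mouse and near 0 in the other 3 NLH mice and in all 4 LH mice. Against the rest of its gene it differed by -2.91 (SE 0.71) in LH vs. Ctrl, with an adjusted p of 0.150 in limma. For NLH vs. Ctrl it differed by -2.37 (SE 0.71, adjusted p = 0.607, limma). In Ctrl vs. HC it differed by 1.75 (SE 0.71, adjusted p = 1, limma), and the Ctrl values correspond to only 2.82 to 5.84 estimated fragments. The two-sample test, the only alternative to do so, called this row against the rest of its gene in LH vs. Ctrl.

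Cacna1h encodes the T-type pore well known from sensory neurons and also found in hippocampal neurons. It had the smallest p of the gene sums, and it was the member whose sums did not overlap in both NLH vs. Ctrl and LH vs. Ctrl. The gene is on chromosome 17, at 25374285 to 25433783 on the minus strand. The sums of its 6 named rows were 3.91, 4.73, 6.93 and 4.39 for HC mice, 5.98, 5.74, 7.66 and 8.95 for Ctrl mice, 2.74, 3.90, 4.25 and 4.55 for NLH mice and 2.35, 4.68, 2.82 and 4.76 for LH mice. Every Ctrl mouse was above every NLH mouse and every LH mouse, and HC overlapped with all other groups. The NLH mean was 54.5% of the Ctrl mean and the LH mean 51.6%.

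For NLH vs. Ctrl the difference was -0.86 (SE 0.24, unadjusted p = 0.00280, adjusted p = 0.522, limma). For LH vs. Ctrl it was -0.98 (SE 0.24, unadjusted p = 0.00102, adjusted p = 0.139, limma). LH vs. NLH was at -0.12 (95% interval -0.63 to 0.40), and Ctrl vs. HC at 0.51 (SE 0.24, adjusted p = 1, limma). Across the groups together the F test of limma gave an adjusted p of 0.246 for Cacna1h and called 0.0766% of all gene sums. Gene sums lay lower without overlap for 1.28% of all genes in NLH vs. Ctrl and for 1.54% in LH vs. Ctrl. Without LH replicate 4, the highest LH mouse, the LH vs. Ctrl difference was -1.12 and was called by limma (adjusted p = 0.0490), in a fit that called 1.05% of all gene sums. As this leaves out the LH mouse nearest to Ctrl, nothing is read from that p. Without LH replicates 3 and 4 the difference was -1.05 (adjusted p = 0.0477, limma), in a fit that called 5.42%. It was not called without LH replicate 1, 2 or 3, with adjusted p of 0.218, 0.0853 and 0.204 by limma.

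Of the gap of these sums between Ctrl and both NLH and LH, most lay in 1 short row. Cacna1h-204 (ENSMUST00000159331.1) is a retained-intron transcript of 412 bases, at 25377551 to 25378943, and held 44.3% of the gene's FPKM. Its first exon, at chr17:25378781-25378943 on the minus strand, starts 84 bases inside an intron, and it is shown because these bases separate the row from the coding transcript. Capitals mark the intron and lower case the coding exon that follows it:
Cacna1h-204: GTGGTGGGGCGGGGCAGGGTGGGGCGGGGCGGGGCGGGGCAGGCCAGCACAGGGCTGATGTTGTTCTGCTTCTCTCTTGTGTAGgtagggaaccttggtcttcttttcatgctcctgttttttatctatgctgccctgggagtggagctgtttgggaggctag

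Cacna1h-204 was at 1.61, 1.28, 3.30 and 1.31 for HC mice, 3.26, 3.30, 5.29 and 4.63 for Ctrl mice, 0.563, 1.24, 2.25 and 2.41 for NLH mice and 0.722, 2.40, 0.883 and 0.285 for LH mice. The Ctrl mice stood above all NLH and LH mice and above 3 of the 4 HC mice. For NLH vs. Ctrl its difference was -1.45 (SE 0.52, adjusted p = 0.802, limma), and for LH vs. Ctrl it was -2.14 (SE 0.52, adjusted p = 0.158, limma). Without LH replicate 2, the highest LH mouse, the latter was -2.61 and was called by limma (adjusted p = 0.0328), in a fit that called 0.388% of all transcripts. As this leaves out the LH mouse nearest to Ctrl, nothing is read from that p. The LH vs. Ctrl difference was not called without LH replicate 1, 3 or 4 (adjusted p of 0.184, 0.224 and 0.152, limma), and without LH replicates 3 and 4 it was -1.53 (adjusted p = 0.236, limma). At the estimated depths the row rests on 1.22 to 37.0 fragments per mouse, and the remaining 328 of its 412 bases lie in coding exons, whose reads it shares with other transcripts.

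The other named rows of Cacna1h summed to 3.11 ± 0.589 for HC mice, 2.96 ± 0.915 for Ctrl mice, 2.24 ± 0.289 for NLH mice and 2.58 ± 1.29 for LH mice, and all groups overlapped. The largest of them, the retained-intron row Cacna1h-203 (ENSMUST00000159052.1, mean 1.33), differed by -0.26 (SE 0.21) in NLH vs. Ctrl and by -0.33 (SE 0.21) in LH vs. Ctrl. The single complete coding row, Cacna1h-202 (ENSMUST00000159048.7), was above 0.01 in 3 mice only, at 0.378 in 1 HC mouse, 0.0523 in 1 Ctrl mouse and 0.0708 in 1 NLH mouse. A change of the coding transcript was therefore not detectable in the named rows.

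The 5 assembled rows of the locus summed to 6.77, 7.73, 6.01 and 7.16 for HC mice, 8.46, 7.78, 8.25 and 8.58 for Ctrl mice, 5.16, 6.17, 7.29 and 6.21 for NLH mice and 5.86, 7.52, 5.26 and 5.00 for LH mice. Ctrl mice were above all mice of the 3 other groups (exact permutation tests, two-sided, p = 0.0286 for each). Of all named gene sums, 3.32% lay higher without overlap in Ctrl vs. HC. In NLH vs. Ctrl 1.28% lay lower without overlap, and in LH vs. Ctrl 1.54%. The same share over summed assembled rows was not computed. With every row of the locus counted, the level was 11.9 ± 0.999 for HC mice, 15.3 ± 1.75 for Ctrl mice, 10.1 ± 1.56 for NLH mice and 9.57 ± 1.92 for LH mice. The locus differed by 0.36 (SE 0.14, adjusted p = 1) in Ctrl vs. HC and by -0.61 (SE 0.14, adjusted p = 0.385) in NLH vs. Ctrl, by limma. For LH vs. Ctrl the locus was at -0.69 (SE 0.14, unadjusted p = 0.000156, adjusted p = 0.0826, limma). At an unadjusted p under 0.05, 2 of the 8 loci, Cacna1h and Cacna1c, passed in LH vs. Ctrl, beside 13.4% of all loci. Limma called the Cacna1h locus without LH replicate 2 (-0.81, adjusted p = 0.0296) or LH replicate 4 (-0.71, adjusted p = 0.0303), in fits that called 0.380% and 3.23% of all loci. LH replicate 2 was the LH mouse nearest to Ctrl, at 12.2, so nothing is read from the p without it. Without LH replicate 1 or LH replicate 3 the locus was not called (-0.62 for each, adjusted p of 0.135 and 0.101, limma). With Cacna1h-204 taken out of the locus, NLH and LH were at 75.3% and 75.6% of Ctrl, and Ctrl mice were still above all NLH and LH mice (exact permutation tests, two-sided, p = 0.0286 for each). The share of all loci without overlap is not given here.

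The median over retained-intron transcripts of all genes was also below 0 in LH vs. Ctrl. Their share of all FPKM was 6.44% to 6.77% in Ctrl, 5.84% to 6.57% in NLH and 5.27% to 6.78% in LH, and over 4516 such rows with a mean of at least 0.5 the median difference in LH vs. Ctrl was -0.23, against -0.01 for 15679 coding rows. It was -0.22 over 1710 processed transcripts, the class of Cacna1a-210, Cacna1c-211 and Cacna1g-213. In NLH vs. Ctrl the medians were -0.06 for retained-intron, 0.08 for coding and -0.02 for processed transcripts. The part of this class-wide shift in the Cacna1h values was not tested. Of the 10 retained-intron rows of the members, 9 had a difference below 0 in LH vs. Ctrl, with a median of -0.70 that includes Cacna1h-204, and none was called by limma. Cacna1a-207 was among the 9, and Cacna1e-204 was the other row, at 1.82 ± 0.743 in LH and 1.64 ± 0.319 in Ctrl. In NLH vs. Ctrl 9 of the 10 were below 0, with a median of -0.27.

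**Figure D4:**
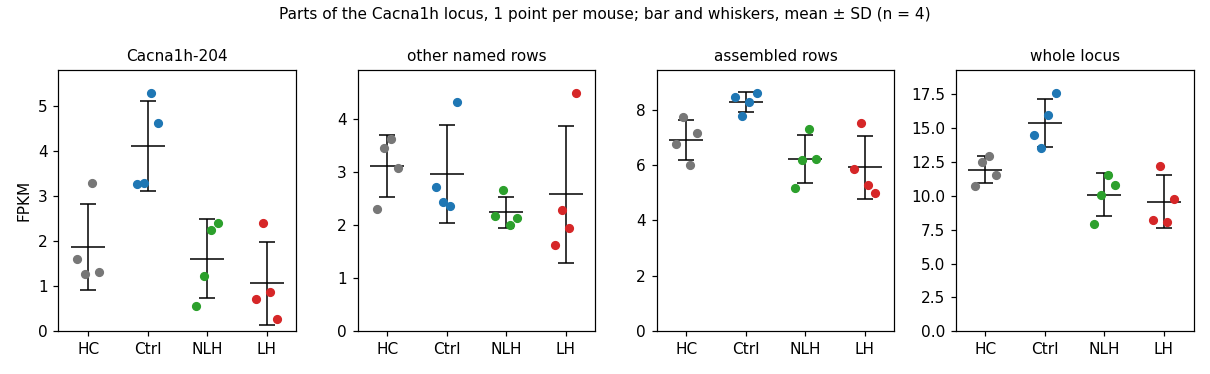
FPKM (y axes, linear from 0) of the short transcript Cacna1h-204, of the other named Cacna1h rows, of the assembled rows and of the whole locus, by group (x axis), with 1 point per mouse and mean ± SD of 4 mice. Ctrl mice lie above NLH and LH mice in all panels but that of the other named rows, and whole-locus values run from 13.5 to 17.5 in Ctrl and from 7.91 to 12.2 in NLH and LH.

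Cacna1i encodes the third T-type pore, the slowest of the 3 to inactivate. The gene is on chromosome 15, at 80287238 to 80398279 on the plus strand. Its named sums were 0.589, 0.373, 0.939 and 0.450 for HC mice, 1.31, 0.951, 1.03 and 0.961 for Ctrl mice, 0.732, 0.835, 1.03 and 0.771 for NLH mice and 0.870, 0.911, 0.656 and 0.151 for LH mice. Ctrl mice were above all HC mice and all LH mice. The difference was 0.82 (SE 0.37, unadjusted p = 0.0405, adjusted p = 1) in Ctrl vs. HC and -0.82 (SE 0.37, unadjusted p = 0.0402, adjusted p = 0.402) in LH vs. Ctrl, by limma. Leaving out the mouse at 0.151, LH replicate 4, gave -0.35 for the latter.

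The coding transcript Cacna1i-202 (ENSMUST00000160424.7) was at 0.393 ± 0.215 in HC and 0.401 ± 0.194 in Ctrl. The gap between these groups lay in 2 short partial rows: Cacna1i-201 (ENSMUST00000160175.1, 779 bases) was at 0.195 ± 0.0445 in HC and 0.470 ± 0.310 in Ctrl, and Cacna1i-203 (ENSMUST00000161863.7) was at 0.281 and 0.496 in 2 Ctrl mice and at 0 or near 0 in all other mice. Whole-locus values were 4.41 ± 0.345 for HC mice, 5.38 ± 0.354 for Ctrl mice, 5.28 ± 0.713 for NLH mice and 5.22 ± 1.48 for LH mice. Ctrl mice stayed above HC mice on this scale (0.28, SE 0.16, adjusted p = 1, limma), while LH vs. Ctrl was at -0.08 (95% interval -0.41 to 0.25).

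**Figure D5:**
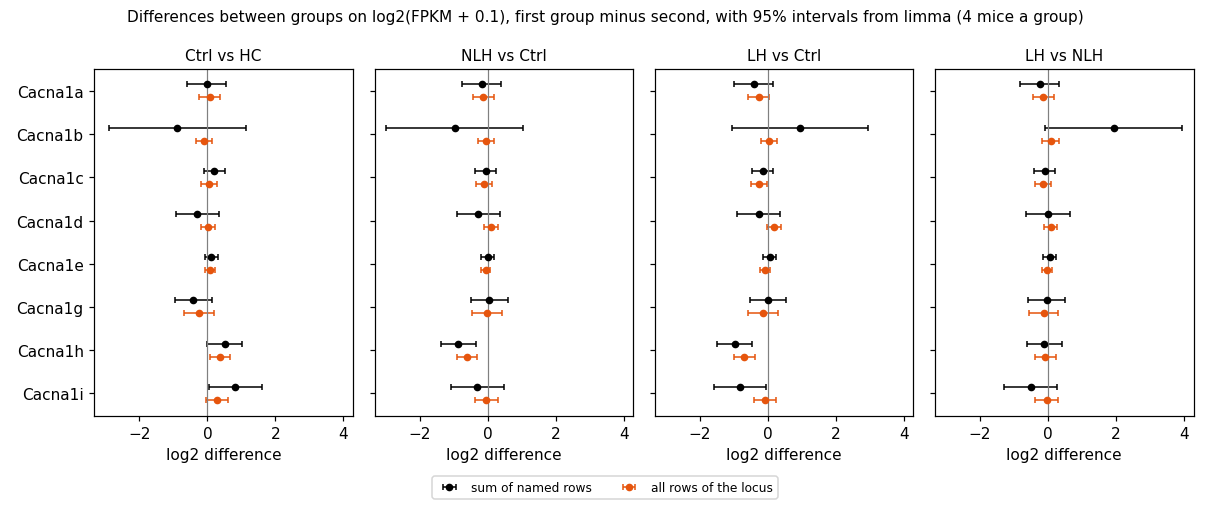
Differences of the 8 genes on log2(FPKM + 0.1) (x axes, first group minus second) in the 4 comparisons, for the sum of named rows (black) and for all rows of the locus (orange), with 95% intervals from limma. Intervals clear of 0 on both scales are those of Cacna1h in NLH vs. Ctrl and LH vs. Ctrl, and the locus intervals are narrower than those of the named rows for all 8 genes.

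At the level of single transcripts, limma called none of the 50 rows in any comparison, beside 0.00374%, 0.0125%, 0.0462% and 0.0412% of all transcripts in Ctrl vs. HC, NLH vs. Ctrl, LH vs. Ctrl and LH vs. NLH. At an unadjusted p under 0.05 there were 4, 3, 7 and 5 of 50 rows, beside 3.45%, 5.12%, 10.7% and 8.72% of all transcripts. In LH vs. Ctrl 6 of the 7 were lower in LH, beside 6.54% of all transcripts, and Cacna1a-201 was higher. In LH vs. NLH 4 of the 5 were lower in LH, beside 5.74% of all transcripts, and again Cacna1a-201 was higher. The median difference over the 50 rows was -0.01, -0.12, -0.27 and -0.09, against 0.00, 0.00, -0.06 and -0.08 over all transcripts. Against the rest of the gene, 32 rows with a mean of at least 0.1 were tested and limma called none, beside 0%, 0.00815%, 0.0462% and 0.0869% of all rows tested, with 4, 2, 7 and 5 at an unadjusted p under 0.05, beside 3.28%, 5.21%, 12.2% and 10.5%. Among the 56 assembled rows none was called either, and at an unadjusted p under 0.05 there were 1, 1, 18 and 4 of them in the same order of comparisons, beside the shares of all transcripts given above. Of the 18 in LH vs. Ctrl, 16 were lower in LH.

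The channel partners, mainly the beta, alpha2delta and gamma subunit genes, gave no call in any comparison. Of 17 listed genes 16 were in the table. At an unadjusted p under 0.05, 2 were lower in Ctrl vs. HC, 1 was higher in NLH vs. Ctrl, 3 were higher and 1 was lower in LH vs. Ctrl, and 0 passed in LH vs. NLH, beside 2.70%, 5.59%, 11.5% and 7.54% of all gene sums. The medians over the list were -0.00, 0.07, 0.03 and -0.08 beside 0.02, 0.06, 0.00 and -0.06 over all gene sums. Cacna2d3, an alpha2delta gene, was at 0.186 ± 0.125 in HC and near 0 in Ctrl (-1.35, SE 0.32, adjusted p = 1, limma). Cacng3, a subunit best known for AMPA receptor trafficking, was at 11.6 ± 0.954 in NLH and 8.86 ± 1.24 in Ctrl (0.39, SE 0.14, adjusted p = 0.716, limma), without overlap. Cacnb4, a beta subunit, was at 54.2 ± 53.7 in LH and 16.5 ± 6.62 in Ctrl (1.31, SE 0.46, adjusted p = 0.289, limma), with overlap. The 4 LH mice were at 39.8, 28.6, 133 and 15.02, and without LH replicate 3, the highest, the difference was 0.72 (adjusted p = 0.387, limma). Without LH replicate 4, the lowest, it was 1.77 (adjusted p = 0.0512, limma), and without both it was 1.11 (adjusted p = 0.0474, limma), which made Cacnb4 the 1 partner of 16 called in a fit that called 5.42% of all gene sums. Cacng8, a gamma gene that also acts on AMPA receptors, was at 3.55 ± 1.57 and 5.57 ± 1.08 in the same groups (-0.71, SE 0.26, adjusted p = 0.309, limma). Cacnb3, also a beta subunit, was at 6.52 ± 1.02 in Ctrl and 8.76 ± 1.86 in HC (-0.41, SE 0.19, adjusted p = 1, limma).

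Of 33 genes listed for anchoring or modulating these channels, all were in the table and none was called by limma. Without LH replicate 4 limma called 1 of the 33 in LH vs. Ctrl, Erc2, beside 1.05% of all gene sums. Without LH replicates 3 and 4 it called Dpp10 (1.05, adjusted p = 0.0246) and Akap5 (0.43, adjusted p = 0.0452), among others, beside 5.42% of all gene sums. In LH vs. Ctrl 6 of the 33 had an unadjusted p under 0.05, 3 in each direction, beside 11.5% of all gene sums, and the median over the list was 0.00. Dpp10, an auxiliary subunit of potassium channels, was at 10.9 ± 3.33 in LH and 5.88 ± 1.52 in Ctrl (0.87, SE 0.19, adjusted p = 0.131, limma), with no overlap. Akap5, which anchors kinase and phosphatase at L-type channels, was at 9.04 ± 0.848 and 7.18 ± 0.315 (0.33, SE 0.11, adjusted p = 0.264, limma). In LH vs. NLH, Cabp1, a calcium sensor that binds P/Q- and L-type channels, was at 6.09 ± 1.35 and 9.40 ± 1.05 (-0.64, SE 0.16, adjusted p = 0.299, limma), again with no overlap. Rimbp2, which ties calcium channels to the active zone, was at 7.42 ± 0.567 in Ctrl and 6.08 ± 0.569 in HC (0.28, SE 0.12, adjusted p = 1, limma).

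The genes whose sums followed each member most closely over the 16 mice, among 10436 genes with a mean of at least 1, were Slc2a6 and Sgta for Cacna1a (Pearson's r of 0.953 and 0.947), C1d and Tmub1 for Cacna1b (0.789 and 0.774), Orai3 and Mau2 for Cacna1c (0.934 and 0.914), Prex2 and Tpgs2 for Cacna1e (0.931 and 0.907), Arv1 and 2610203C20Rik for Cacna1g (0.796 and 0.771), Ncapd2 and Tmtc1 for Cacna1h (0.815 and 0.764) and Nfkbiz and Zdhhc16 for Cacna1i (0.898 for each). For Cacna1d, which was near 0 in 13 mice, the highest was 0.647. These values mix differences between groups with differences between single libraries, so they describe the 16 libraries and carry no test. Between members the highest r was 0.593, for Cacna1a with Cacna1i, both of which were lowest in LH replicate 4.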

How the data were processed

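Hippocampal total RNA of 16 mice was sequenced as paired ends. The authors aligned the reads to mm10 (the paper names HISAT2, the submitters' processing notes STAR 2.42a), merged a StringTie 1.2.3 assembly over all samples and deposited Cufflinks FPKM values per transcript; fragment counts are not used here. Transcript types, positions and sequences came from GENCODE vM21 (GRCm38), which matched 50 of 50 named rows.

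FPKM values were summed by gene name, log2(FPKM + 0.1) was fitted with limma 3.58.1 (R 4.3.3) as 4 group means with trended, robust variances (no trend for transcripts against the rest of the gene), and p-values were adjusted by the Benjamini-Hochberg method over all 18287 gene sums, 80137 transcripts or 36822 transcripts set against the rest of their gene, the last with a mean of at least 0.1 and the others without a filter on low values. Exact permutation tests were two-sided, over 70 splits, unadjusted, with a smallest p of 0.0286. Any pair of groups without overlap reaches that p. The share of all genes or rows without overlap is given for gene sums only, so for single rows and assembled rows the separation is a description. Depth was estimated from steps of low values with an assumed fragment length of 200 bases, and 66.5% to 84.3% of the values used came within 0.1 of a whole fragment. On simulated data, in LH vs. Ctrl, the fits recovered 93.5% of 200 gene sums and 75.0% of 200 transcripts changed by 4-fold. For transcripts set against the rest of their gene, 10.0% of 200 were recovered. Recovery was not broken down by level, and only 13 of the 50 member rows had a mean of at least 1 FPKM. Whether these shares hold for low rows, or under the wider spread within LH, was not tested.

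The members and lists were chosen with earlier results of these data known. Transcripts named were the 2 most abundant of each gene and the 3 with the smallest p in each comparison among those with a mean of at least 0.1. Outside this rule, Cacna1c-211, Cacna1i-203 and Cacna1h-202 were chosen with their values in view. Of the partner and modulator lists, the rule took the 2 genes with the smallest p in each comparison, and the text gives some of these. Alternatives were the added constant, a filter on low values, size factors, a replicate block, a two-sample test, leaving out mice, and the choice of rows. The full set of modulators called without LH replicates 3 and 4 is not reported here.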

Additional observations from a re-analysis of the deposited data

Results flagged for a closer look

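Of 113 sets of 4 mice tested, 5 held 1 value far from the other 3 by Dixon's test, and chance alone flags about 1 in 20 such sets. In Ctrl, replicate 1 had 0.110 FPKM of Cacna1d, all of it in Cacna1d-201 (0.110), and the other 3 mice had at most 0.00109. In LH, replicate 4 had 3.20 FPKM of Cacna1g-212, a short transcript without a coding frame, and the others had 0 to 0.412. In NLH, replicate 1 had 0.349 FPKM of Cacna1g-213, where the others were near 0. In HC, replicate 3 had 3.30 FPKM of Cacna1h-204, against 1.28 to 1.61 in the others, which brings that HC mouse into the range of the Ctrl mice. No cause was tested for these values.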

How the results depend on the processing

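The 13 counts of members called, all 0 by limma, were recomputed under 447 alternatives, 345 of them planned, and 19 gave a count above 0. Without adjustment, the two-sample test on FPKM counted 3, 1, 1 and 0 gene sums in Ctrl vs. HC, NLH vs. Ctrl, LH vs. Ctrl and LH vs. NLH, 3, 5, 5 and 3 transcripts, and 6, 3, 5 and 4 transcripts against the rest of the gene. With adjustment it called 1, Cacna1g-213 against the rest of its gene in LH vs. Ctrl. Cacna1h was called in LH vs. Ctrl, a count of 1, without LH replicate 4 (adjusted p = 0.0490, limma), without LH replicates 3 and 4 together, with all rows of the locus and median-ratio size factors (-0.61, adjusted p = 0.0325, limma, in a fit that called 4.09% of all loci), and with all rows of the locus without LH replicate 2 or without LH replicate 4. The test of any difference among the 4 groups also called 1 gene, Cacna1h, with all rows of the locus without LH replicate 2. The LH mouse nearest to Ctrl was LH replicate 2 for the locus and LH replicate 4 for the named sum. Nothing is read from the calls made without that mouse.

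Leaving out each mouse in turn gave counts of 0 to 1 for gene sums and 0 to 2 for transcripts in LH vs. Ctrl, and 0 to 0 for the other results. The Cacna1h difference in LH vs. Ctrl stayed between -1.12 and -0.79 and that in NLH vs. Ctrl between -0.95 and -0.71 when single mice were left out. Complete coding transcripts alone, at a mean of 0.0313 FPKM, gave 0.04 for Cacna1h in NLH vs. Ctrl. With all rows of the locus, Cacna1i in LH vs. Ctrl was -0.11, -0.25, 0.02 and 0.03 without LH replicate 1, 2, 3 and 4.

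Replicate numbers did not pair the mice: over 24 pairs with the same number the median correlation of deviations was -0.02, and 3 exceeded 0.1. With the replicate block 0 members were called in every result, and the adjusted p of Cacna1h in LH vs. Ctrl was 0.187 by limma. Over all gene sums, the count called in LH vs. Ctrl moved from 0 to 49 with size factors, to 5 with 0.01 added to FPKM or a mean of at least 1, to as many as 191 when a single mouse was left out (LH replicate 4) and to 989 without LH replicates 3 and 4. Leaving out single mice took it from 2 to as many as 11 in LH vs. NLH and from 1 to 11 in NLH vs. Ctrl, and the count for any group from 14 to between 4 and 103. For all transcripts in LH vs. Ctrl it moved from 37 to between 12 and 310. With size factors the split of higher and lower gene sums at an unadjusted p under 0.05 in LH vs. Ctrl moved from 1286 and 821 to 1308 and 1588, and that in NLH vs. Ctrl from 811 and 212 to 664 and 614. The cause of these moves was not tested. Rows of a few fragments limit the precision for short transcripts. The alternatives on all rows of a locus, on coding or frameless rows alone and on the rest of the locus were chosen after seeing the data.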
